A study of Mus musculus with 8 samples.

Results

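A group of 10 genes for blood group antigens and other proteins of the red cell surface was followed in the whole blood of mice exposed to restraint stress (RST). The members were Kel, Ermap, Rhd, Rhag and Icam4, whose expression is largely restricted to the erythroid line, and Gypc, Cd59a, Aqp1, Xk and Cd47, which are also expressed in other cells. Every probe set whose only gene in the platform annotation was a member was taken, which gave 16 of the 45101 probe sets of the array. Of these, 14 passed the filter on low values, for 9 of the 10 genes, beside 25084 probe sets and 11762 genes that passed it in all. A probe set passed where it was above the median of its array in at least 2 of the 4 arrays of a group, and Xk did not pass at either of its probe sets.

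Female C57BL/6J mice, whose labels give an age of 6-8 weeks (the age at purchase in the study's methods), were acclimated and then restrained in ventilated tubes for 6 h per day, and blood was taken on Day 7 (RST, 4 mice). The 4 control mice received neither food nor water during the same hours and were otherwise left alone. In the study's methods whole cages were assigned to control or RST. The labels do not give the cage, so a difference between cages cannot be told apart from one between RST and control. RNA from each mouse was amplified and hybridized to its own Affymetrix GeneChip, and the levels given here are log2 values of 1 probe set, which can be compared between mice but not between probe sets. The comparison asks whether the mRNAs of these surface proteins differed in blood between RST and control mice, and whether the erythroid-restricted genes differed from those expressed more widely.

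Mature mouse red cells have no nucleus, and most mRNA of the red cell line in blood comes from reticulocytes, the youngest circulating red cells. Their surface carries the Kell, Rh and Landsteiner-Wiener blood group proteins, most of them anchored to a spectrin skeleton under the membrane through ankyrin, protein 4.2 and protein 4.1. Other surface proteins protect the cell, Cd47 from uptake by macrophages and Cd59 from complement. In whole blood, a change in the number of cells of a type cannot be told apart from a change in the RNA of each cell.

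The arrays differed from one another in ways that touch these values. Each array's hybridization controls, mixed in before hybridization, averaged between 11.90 and 12.74 over 18 probe sets in the 4 control mice and between 12.35 and 12.73 in the 4 RST mice, and control mice 1 and 2 (11.93 and 11.90) and RST mouse 2 (12.35) had the lowest means. RST mouse 4 had the lowest level in 46.8% of the genes tested. The median gene had a log2 fold change of −0.24, so a member at 0 lay above the median gene, and the mean was higher in RST mice for 32.4% of genes. After quantile normalization the median over probe sets was −0.02, with control probe set scaling −0.41, and with median scaling 0.06. The mean level of the 5 red cell markers past the filter (of 10 listed) was higher in all 4 RST mice than in any control mouse (mean centred log2 level −0.59 to 0.05 in control and 0.15 to 0.33 in RST mice). The groups did not overlap for Epb42 (log2 fold change 1.36), Slc4a1 (0.63) and Hba-a2 (0.41), and they overlapped for Hbb-b2 (0.22) and Alas2 (0.11). Epb42 and Slc4a1 also belong to lists described further on, and Hba-a1 lay between 1.48 and 1.87 on its single probe set, below the filter. All 4 measured B cell markers, 4 T cell markers and 5 monocyte markers had lower means in RST mice, and in each list the mean levels of the groups did not overlap. For B cell markers these levels were −0.04 to 0.97 in control and −0.76 to −0.34 in RST mice, for T cell markers −0.02 to 0.69 and −0.79 to −0.07, and for monocyte markers −0.02 to 0.76 and −0.67 to −0.07. Neutrophil, platelet and endothelial marker levels overlapped between the groups, and Cdh5 was below the filter. Their part in the results was not tested, beyond the values given relative to the red cell markers and without single arrays.

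No probe set reached an adjusted p under 0.05 and a fold above 1.5 in limma (0 of 25084, or 0%), so no member did. Without adjustment, 3419 probe sets had p under 0.05, and 3337 of these had a fold above 1.5. Plain analysis of variance, the test named in the study's methods, also gave 0 adjusted calls here. It was run on the deposited values with the median filter in place of the study's presence calls, so it does not repeat the study's own selection of genes. Limma with a trended and robust prior gave 35 adjusted calls, none of them a member. The members are therefore described by their levels, and the word higher refers to means.

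The bases before the transcription start of the members were searched over 250 positions, and parts of the windows are shown first, since GATA motifs were found there in the erythroid-restricted members and not in the widely expressed ones. GATA1, a transcription factor of the erythroid line, binds GATA motifs, and KLF1 binds CACCC boxes in erythroid promoters. The windows were read from RefSeq promoters of build GRCm38.p6, which hold 9 of the 10 members (there was no entry for Gypc). A GATA motif was NGATAN with A or T as its first base and A or G as its last, a CACCC box was CCNCNCCC, and both strands were searched. Because N in the box takes any base, a run of C or G also matches it, while the letters CACCC alone need not match. No motif overlapped one of the other kind. The windows below are cut to the bases outside the annotated gene and end at its first base or just before it, 5′ to 3′ in the gene's own direction. Capitals mark each GATA motif or CACCC box.
Kel, chr6:41704335-41704445, minus strand: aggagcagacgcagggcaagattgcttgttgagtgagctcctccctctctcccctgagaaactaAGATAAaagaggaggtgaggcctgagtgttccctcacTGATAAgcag
Ermap, chr4:119190014-119190115, minus strand: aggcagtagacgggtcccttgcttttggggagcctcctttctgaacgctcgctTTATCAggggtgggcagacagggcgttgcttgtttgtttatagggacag
Rhd, chr4:134864416-134864535, plus strand: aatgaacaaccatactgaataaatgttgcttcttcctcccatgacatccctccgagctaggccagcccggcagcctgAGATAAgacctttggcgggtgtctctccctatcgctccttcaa
Icam4, chr9:21029312-21029431, plus strand: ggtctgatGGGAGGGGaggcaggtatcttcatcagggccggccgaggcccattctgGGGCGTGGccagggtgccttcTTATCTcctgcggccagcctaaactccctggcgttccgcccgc
Aqp1, chr6:55336179-55336298, plus strand: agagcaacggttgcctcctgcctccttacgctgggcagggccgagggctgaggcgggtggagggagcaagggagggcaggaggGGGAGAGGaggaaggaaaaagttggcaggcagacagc

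A GATA motif lay in the window of 5 of 5 erythroid-restricted members and of 0 of 4 widely expressed members, beside 26.5% of the 32851 promoters of the table. Counted from the start in the promoter table, which lies 9 bases past the end of the printed window in Kel and 18 in Ermap, the first base of the motif was at −56 and −19 in Kel, −67 in Ermap, −43 in Rhd, −43 in Icam4 and −31 in Rhag. All 5 genes thus held one within 70 bases of the start, as did 7.00% of all promoters, and this shorter window was chosen after the positions were seen. Matches to the box pattern lay in Icam4 alone among the erythroid-restricted genes and in Cd59a, Aqp1 and Xk among the others. Of all promoters, 45.9% held one. The letters CACCC themselves stand unmarked on the other strand (gggtg) in the printed windows of Ermap, Rhd, Icam4 and Aqp1. The marked stretches of Icam4 (GGGAGGGG and GGGCGTGG) and Aqp1 (GGGAGAGG) do not hold these letters on either strand, so the matches do not give the distribution of CACCC. In Aqp1, printed for contrast, the boxes lay at −248, −190 and −37 and no GATA motif was found. Most of the 13 matches in Xk lay in 1 run of G. Icam4 was the only member with a GATA motif and a match to the box pattern, which 8.19% of all promoters hold. Ermap and Rhd, with a GATA motif and the letters gggtg in their printed windows, do not count by that pattern. The motif of Rhag, both boxes of Cd59a and the whole window of Cd47 lay inside the annotated gene and are not printed. These matches describe letters, and a window without a match says nothing of the factor.

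Kel, Cd59a and Rhd, and Xk below the filter, had the smallest limma p among the members, all with higher levels in RST mice. By an unadjusted criterion (p under 0.05, fold above 1.5), 3 of the 9 member genes past the filter were higher in RST mice (Kel, Rhd and Cd59a), beside 2.8% of genes higher, and 0 of 9 were lower, beside 12.8% of genes lower. With no filter on low values the count was 4 of 10, with Xk added, beside 2.32% of 18193 genes. Groups did not overlap for 1 of the 9 genes, Cd59a, beside 2.37% of genes with RST mice higher and 6.57% with RST mice lower. At the brightest probe set of each of the 10 members, the RST mean was the higher in 9 (not in Ermap), beside 32.4% of genes past the filter and 45.5% of genes with no filter, and Cd47 counts among the 9 on that probe set only. Icam4 passed the filter through its RST arrays alone (2 of 4 above the median, and 0 of 4 control arrays), so its presence among the 9 is tied to its difference. Without the 3 arrays of low hybridization controls, which leaves 2 control and 3 RST mice, 0 of the 8 members past the filter met the criterion with RST mice higher, beside 0.613% of genes, and the RST mean was the higher in 6 of 8. This comparison, like those relative to the red cell markers given further on, was chosen after the data were seen.

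**Figure D1:**
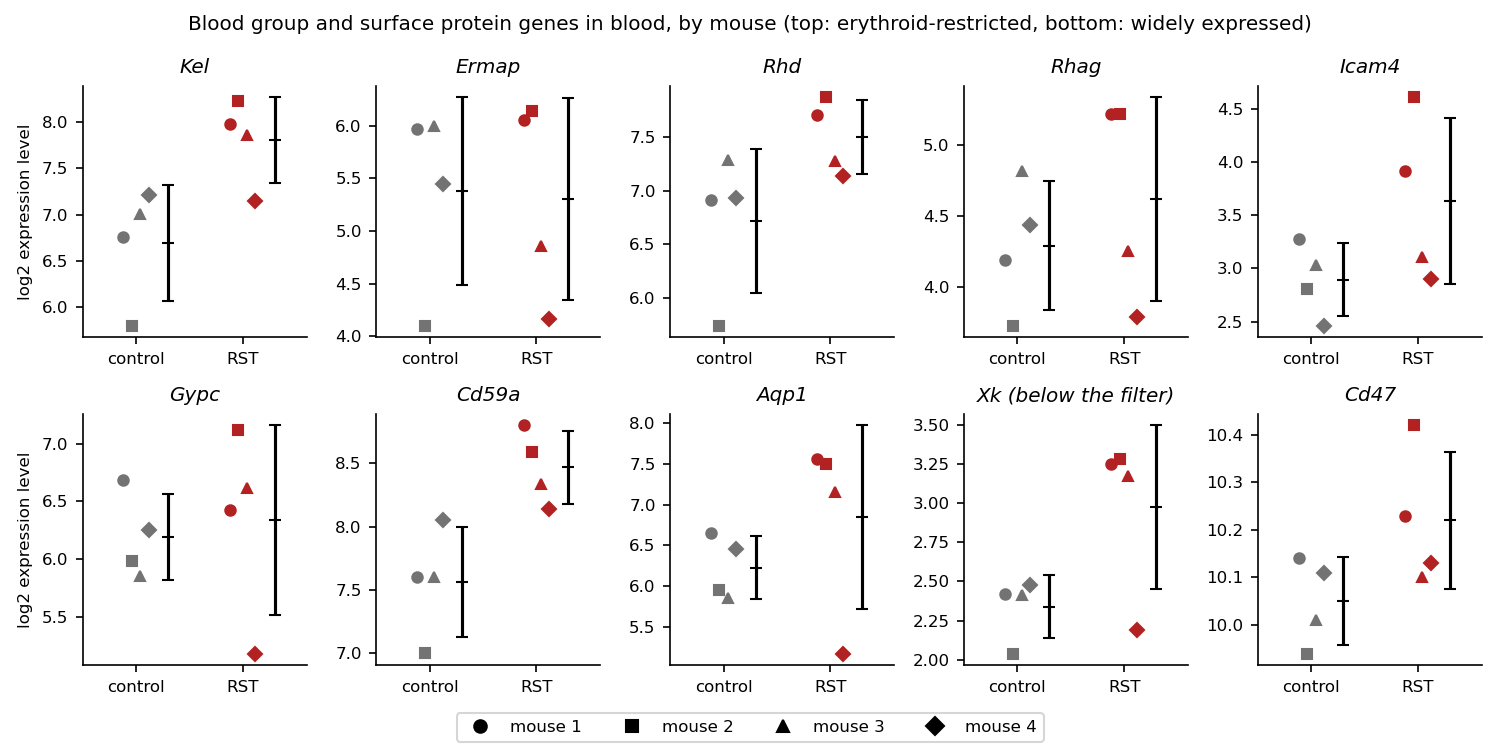
Log2 expression level (vertical axis, scaled separately for each gene) of the representing probe set of each member in 4 control (grey) and 4 RST (red) mice, with mean and SD beside each group. Cd59a is the only gene whose groups do not overlap, and RST mouse 4 (diamond) lies far below the other RST mice for Aqp1 at 5.18.

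Kel encodes the Kell glycoprotein, a zinc endopeptidase that processes endothelin and carries the Kell antigens (chr6:41686329-41704334). Its log2 levels were 6.76, 5.80, 7.01 and 7.21 in control mice 1 to 4, against 7.98, 8.23, 7.86 and 7.15 in RST mice 1 to 4. RST mice 1 to 3 were above every control mouse, and RST mouse 4 lay just under control mouse 4. The means were 6.70 ± 0.62 and 7.81 ± 0.47 (SD, n = 4 each), a log2 fold change of 1.11 (standard error, SE, 0.36; 2.16-fold), with an adjusted p of 0.32 in limma. The exact permutation test of 4 against 4 mice gave a two-sided p of 0.057, where the smallest possible is 0.029. Among all genes tested, the log2 fold change of Kel was at the 99.5th percentile. Without the arrays of low hybridization controls (control mice 1 and 2 and RST mouse 2) it was 0.56, with an adjusted p of 0.82 in limma, and with each mouse's red cell marker level subtracted it was 0.57.

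Xk encodes a membrane protein that is bound to the Kell glycoprotein by a disulfide bond on the red cell surface and is also expressed in muscle and brain (chrX:9272784-9313245). Its 1453866_a_at probe set read 2.42, 2.04, 2.41 and 2.48 in control mice 1 to 4, against 3.25, 3.28, 3.17 and 2.19 in RST mice 1 to 4. As for Kel, RST mice 1 to 3 were above all control mice and RST mouse 4 was not, but all 8 values were below the array median. In a fit of all probe sets the log2 fold change was 0.63 (SE 0.27), with an adjusted p of 0.44 in limma, and the exact permutation test gave p = 0.11. On its other probe set, 1450189_at, the levels were 2.36, 2.33, 2.01 and 2.04 in control and 3.06, 2.40, 2.33 and 2.36 in RST mice, so that RST mouse 1 stood above the rest. That difference was 0.35 (SE 0.22), with an adjusted p of 0.58 in limma.

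Rhd encodes the Rh polypeptide of the mouse, the core of the Rh complex (chr4:134864536-134896172). Levels of Rhd were 6.91, 5.74, 7.29 and 6.93 in the controls and 7.71, 7.87, 7.28 and 7.14 in RST mice 1 to 4. The groups overlapped through control mouse 3, which lay above RST mice 3 and 4, and control mouse 2 was more than 1 log2 unit below every other mouse. The log2 fold change was 0.78 (SE 0.35, 1.72-fold; 6.72 ± 0.68 against 7.50 ± 0.34), with an adjusted p of 0.36 in limma and p = 0.086 in the exact permutation test. Rhd no longer met the unadjusted criterion with control probe set scaling, plain analysis of variance, the hybridization controls as a covariate or a replicate block. It rested in part on control mouse 2, since without that mouse it was 0.46, and without the 3 arrays of low hybridization controls it was 0.27, with an adjusted p of 0.88 in limma. Relative to the red cell markers it was 0.24.

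Rhag encodes the Rh-associated glycoprotein, the ammonium-transporting partner without which Rh polypeptides do not reach the membrane (chr17:40811099-40844094). Its levels were 4.19, 3.73, 4.82 and 4.44 in the controls and 5.22, 5.22, 4.26 and 3.79 in RST mice 1 to 4. RST mice 1 and 2 were above all other mice, while RST mice 3 and 4 lay within the control range. The difference of 0.32 (SE 0.38, 1.25-fold) was smaller than the spread between RST mice (SD 0.72), with an adjusted p of 0.71 in limma and p = 0.49 in the exact permutation test. Without the 3 arrays of low hybridization controls it was −0.21, and relative to the red cell markers −0.22. The 2 partners of the Rh complex thus shared the high values of RST mice 1 and 2 and the low value of control mouse 2, and the difference between their changes was not tested. The same mice were highest and lowest in Kel and Ermap, and in Cd59a and Cd47 at their brightest probe sets, so this was not particular to the Rh complex.

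Icam4 carries the Landsteiner-Wiener antigens and binds integrins of leukocytes and macrophages (chr9:21029432-21030596). Levels were low, at 3.28, 2.81, 3.03 and 2.46 in the controls and 3.92, 4.61, 3.11 and 2.90 in RST mice 1 to 4. RST mice 1 and 2 were above every control mouse, and RST mice 3 and 4 were not. The log2 fold change was 0.74 (SE 0.38, 1.67-fold), with an adjusted p of 0.40 in limma and p = 0.17 in the exact permutation test, and relative to the red cell markers it was 0.20. Without RST mouse 1 or RST mouse 2 the probe set no longer passed the filter.

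Ermap, the erythroblast membrane-associated protein that carries the Scianna antigens, had the smallest difference of means among the members (chr4:119175457-119190013). The levels were 5.97, 4.10, 6.00 and 5.45 in the controls and 6.06, 6.14, 4.86 and 4.16 in RST mice 1 to 4. Each group held mice at both ends of the range, with control mouse 2 and RST mouse 4 the lowest. The log2 fold change was −0.08 (SE 0.52, 0.947-fold), with an adjusted p of 0.96 in limma, and the exact permutation test gave p = 1. Its sign turned with the mice and the scaling: it was −0.50 without control mouse 2, 0.30 without RST mouse 4, 0.13 after quantile normalization and 0.19 after median scaling. Ermap was at the 62.0th percentile of genes, where the median gene itself was below 0.

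Gypc encodes glycophorin C, the membrane anchor of protein 4.1 and carrier of the Gerbich antigens, and is expressed in many tissues. Its levels were 6.69, 5.98, 5.85 and 6.25 in the controls and 6.43, 7.12, 6.62 and 5.18 in RST mice 1 to 4. The highest and the lowest values both belonged to RST mice (mice 2 and 4). The difference of 0.14 (SE 0.40) was smaller than the SD in either group (0.37 in control and 0.82 in RST mice), with an adjusted p of 0.89 in limma. It was −0.12 without RST mouse 2, 0.53 without RST mouse 4, −0.06 with control probe set scaling and −0.40 relative to the red cell markers.

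Aqp1 encodes the water channel that carries the Colton antigens and is also found in kidney and endothelium (chr6:55336299-55348555). Its levels were 6.65, 5.95, 5.86 and 6.46 in the controls and 7.55, 7.50, 7.15 and 5.18 in RST mice 1 to 4. RST mice 1 to 3 were above all control mice, and RST mouse 4 was the lowest of the 8. With all mice the log2 fold change was 0.62 (SE 0.48, 1.53-fold; 6.23 ± 0.38 against 6.84 ± 1.13), with an adjusted p of 0.56 in limma and p = 0.31 in the exact permutation test. Without RST mouse 4 it was 1.17, with an adjusted p of 0.29 in limma. Relative to the red cell markers, with all mice, it was 0.07. Endothelial markers overlapped between the groups (−0.34 to 0.28 in control and −0.32 to 0.24 in RST mice).

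Cd59a encodes a lipid-anchored inhibitor of the membrane attack complex of complement, found on red cells and on many other cells (chr2:104095753-104115410). On its brighter probe set, 1418710_at, the levels were 7.60, 7.00, 7.60 and 8.05 in the controls and 8.80, 8.59, 8.34 and 8.14 in RST mice 1 to 4. All 4 RST mice were above all 4 control mice, by 0.09 between the nearest pair. The means of 7.56 ± 0.43 and 8.47 ± 0.29 (SD, n = 4 each) gave a log2 fold change of 0.90 (SE 0.29, 1.87-fold), with an adjusted p of 0.32 in limma. The exact permutation test gave p = 0.029, the smallest it can give with 4 against 4 mice. Without the 3 arrays of low hybridization controls the difference was 0.60 (adjusted p = 0.81 in limma), and relative to the red cell markers it was 0.36.
The other probe set, 1429830_a_at, did not separate the groups. Its levels were 5.54, 5.51, 5.19 and 6.44 in the controls and 6.74, 7.14, 5.80 and 5.36 in RST mice 1 to 4. Here RST mouse 4 lay below 3 of the control mice, and the difference of 0.59 (SE 0.42) had an adjusted p of 0.52 in limma and p = 0.23 in the exact permutation test.

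Cd47 encodes the integrin-associated protein, which signals through Sirpa on macrophages and is found with the Rh complex in human red cells (chr16:49851328-49912503). It is expressed by nearly all blood cells and had 5 probe sets, which did not share a direction. On the brightest, 1449507_a_at, the levels were 10.14, 9.94, 10.01 and 10.11 in the controls and 10.23, 10.42, 10.10 and 10.13 in RST mice 1 to 4. RST mice 1 and 2 were above all control mice, within a range of less than 0.5 over all 8. The log2 fold change was 0.17 (SE 0.23), with an adjusted p of 0.75 in limma and p = 0.14 in the exact permutation test. On 1428187_at the direction was opposite, at 9.88, 9.93, 9.29 and 9.67 in control and 9.32, 9.46, 9.45 and 9.31 in RST mice, a difference of −0.31 (SE 0.25) with an adjusted p of 0.57 in limma. The remaining probe sets gave −0.08 (1419554_at), 0.06 (1459908_at) and −0.12 (1430997_at), each smaller than its SE (0.27, 0.31 and 0.41). The mean over all 5 was −0.06, so no direction is given for Cd47. Lower B cell, T cell and monocyte markers accompanied these values, and their part in them was not tested.

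**Figure D2:**
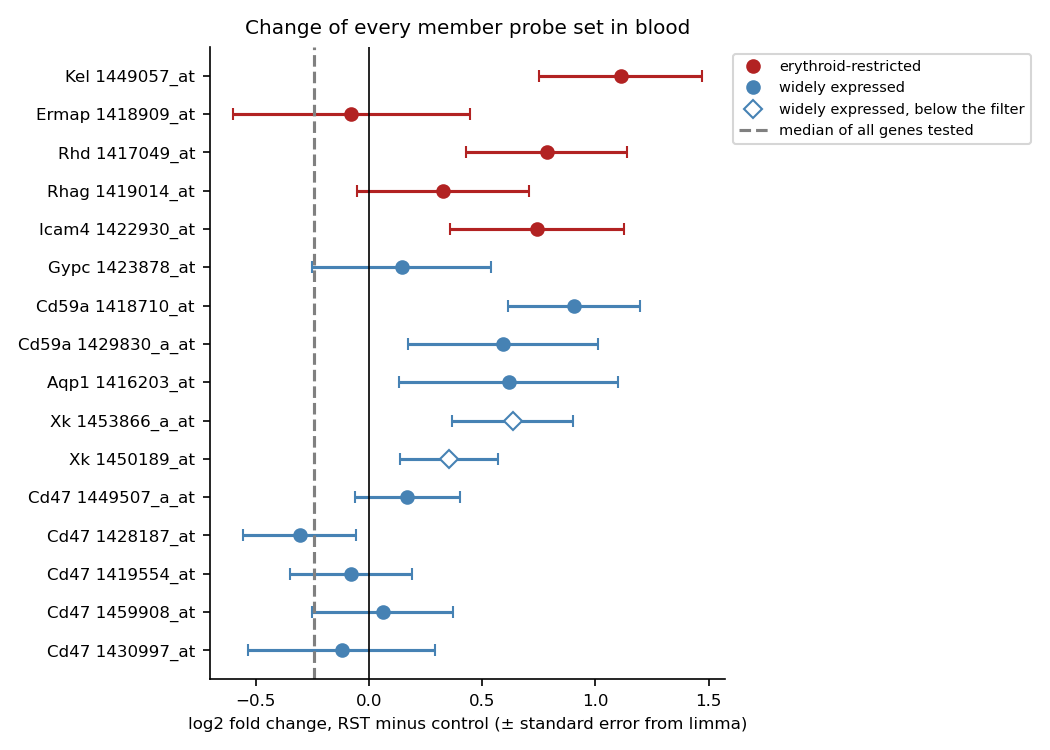
Log2 fold change, RST minus control, of each of the 16 member probe sets with its SE from limma (horizontal axis), for erythroid-restricted (red) and widely expressed (blue) genes; open symbols are below the filter and the dashed line is the median of all genes tested (−0.24). Kel lies farthest to the right at 1.11, Ermap lies at −0.08, the Cd47 probe sets lie on both sides of 0 from −0.31 to 0.17, and no probe set passed the adjusted threshold.

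Single mice stood out in several members at once, at the brightest probe set of each gene. RST mouse 2 had the highest level of the 8 mice in 7 of the 9 members past the filter (Kel, Ermap, Rhd, Rhag, Icam4, Gypc and Cd47), beside 14.5% of all genes. The other 2, Cd59a and Aqp1, were highest in RST mouse 1, where 11.4% of genes were highest. Icam4 passed the filter through its RST arrays alone, so its place among the 7 is tied to the filter. Control mouse 2 was the lowest in 6 of the 9 (Kel, Ermap, Rhd, Rhag, Cd59a and Cd47), beside 9.25% of genes, although 26.0% of all genes were highest in that mouse. Other probe sets of the same genes differed. On Cd47 1428187_at control mouse 2 was the highest (9.93), and on Cd59a 1429830_a_at control mouse 3 was the lowest (5.19). RST mouse 2 was not the highest on any other Cd47 probe set. RST mouse 4, the lowest of all mice for 46.8% of genes, was the lowest for 2 members, Gypc and Aqp1. RST mouse 2 and control mouse 2 were among the 3 arrays of low hybridization controls.

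The difference between erythroid-restricted and widely expressed members was smaller than the spread between mice. Median log2 fold changes were 0.74 over the 5 erythroid-restricted genes and 0.39 over the 4 widely expressed genes past the filter, a difference of 0.35, against −0.24 for all genes. The median of the erythroid-restricted genes was the value of Icam4, which passed the filter through its RST arrays alone, and with a stricter filter, which left Icam4 out, the difference was 0.16. With Xk included, the medians were 0.74 and 0.62, and their difference was 0.13. In each mouse, the mean centred level of the erythroid-restricted genes minus that of the widely expressed genes was −0.09, −0.53, 0.55 and −0.17 in control mice 1 to 4, against 0.18, 0.26, −0.32 and 0.12 in RST mice 1 to 4. The highest value belonged to control mouse 3, and RST mouse 3 lay below 3 of the control mice. The means, −0.06 ± 0.45 and 0.06 ± 0.26 (SD, n = 4 each), differed by less than the SD of either group. Leaving out 1 mouse gave differences of medians from 0.13 to 0.50, and without control mouse 2 or 4 or RST mouse 1, 2 or 4 it was at most 0.16. It was 0.02 after quantile normalization, −0.03 with the hybridization controls as a covariate and −0.25 without the 3 arrays of low hybridization controls (where Icam4 also failed the filter). The difference depended on the class given to single members. It was −0.08 with Gypc counted as erythroid-restricted, and 0.51 with Aqp1 and Xk so counted (6 and 3 members past the filter). With the mean of all probe sets of each gene it was 0.36. No direction is therefore given for the contrast of the classes.

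**Figure D3:**
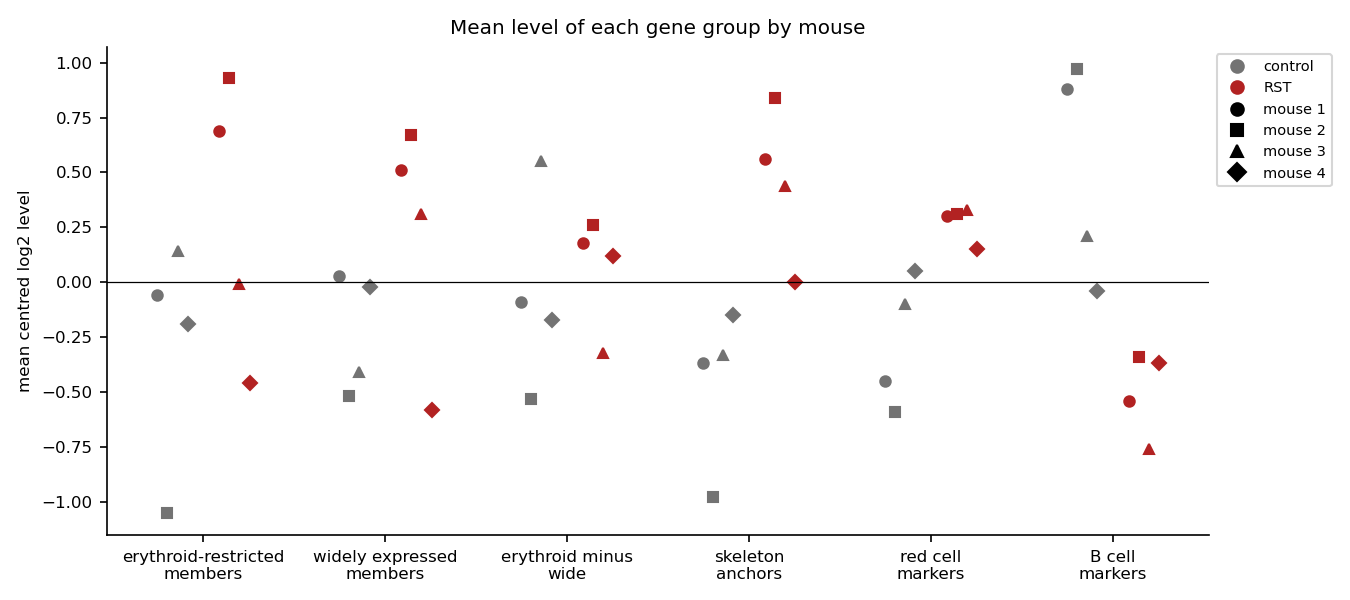
Mean centred log2 level of each gene group (vertical axis) in 4 control (grey) and 4 RST (red) mice, one symbol per mouse. The erythroid-restricted members span −1.05 to 0.14 in control and −0.46 to 0.93 in RST mice and overlap, as do the widely expressed members and the difference between them, while skeleton anchors and red cell markers are higher and B cell markers lower in every RST mouse.

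Proteins that anchor these surface proteins to the red cell skeleton formed a list of 10 genes, of which 8 were measured. Mean mRNA levels were higher in RST mice in 8 of 8, beside 32.4% of all genes. The median log2 fold change of the list was 0.87, against −0.24 for all genes, and 6 of 8 passed the unadjusted criterion, beside 2.8% of genes higher. Ank1, which encodes ankyrin and links band 3 and the Rh complex to spectrin, read 6.22, 5.59, 6.55 and 6.72 in control and 7.65, 8.17, 7.47 and 7.10 in RST mice. Every RST mouse was above every control mouse, with a log2 fold change of 1.33 (SE 0.33) and an adjusted p of 0.32 in limma. Epb42, which encodes protein 4.2, read 7.24, 6.72, 8.01 and 8.34 in control and 9.07, 9.11, 8.93 and 8.63 in RST mice, again without overlap, with a log2 fold change of 1.36 (SE 0.36, adjusted p = 0.32 in limma). The mean level of the list did not overlap between the groups (−0.98 to −0.15 in control and 0.00 to 0.84 in RST mice). Without the 3 arrays of low hybridization controls, the RST mean was still the higher in 8 of 8 (median 0.51), but only Ank1 met the unadjusted criterion. Epb41 had no probe set with a single name here, and Epb42 also belongs to the red cell markers.

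Other blood group and surface genes did not share a direction. Of 28 listed genes, 21 passed the filter, the RST mean was the higher in 11 and the lower in 10, and the median was 0.01. Over all genes tested, the RST mean was the higher in 32.4% and the median was −0.24. The unadjusted criterion was passed by 4 with RST mice higher (Bsg, Ackr1, Slc4a1 and Aqp9) and by 1 with RST mice lower (Cd55), beside 2.8% and 12.8% of genes. Bsg, the carrier of the Ok antigens and partner of lactate transporters, read 9.21, 8.92, 9.46 and 9.47 in control and 10.27, 10.20, 10.21 and 9.80 in RST mice. The groups did not overlap, and the log2 fold change was 0.85 (SE 0.26, adjusted p = 0.32 in limma). Slc4a1, which encodes band 3, the anion exchanger at the core of the Rh and ankyrin complex and one of the red cell markers, was also higher in every RST mouse, with 11.79, 11.56, 12.32 and 12.27 in control and 12.65, 12.68, 12.60 and 12.54 in RST mice (0.63, SE 0.26, adjusted p = 0.34 in limma). Ackr1, the Duffy chemokine receptor, had a difference of 0.91 (SE 0.31). Cd55, another inhibitor of complement and carrier of the Cromer antigens, had one of −0.87 (SE 0.31), opposite to Cd59a, and its adjusted p in limma was 0.32. Without the 3 arrays of low hybridization controls, 0 of 20 genes met the criterion with RST mice higher, the RST mean was the higher in 8 and the median was −0.16. Aqp9 (0.62) and Cd55 were named after their values were seen. Cd59b had no probe set with a single name here.

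Ligands and binding partners of the members did not share a direction. Of 10 genes, the RST mean was above the control mean in 4 and below it in 6 (median −0.08), and the mean levels overlapped. All genes tested had a higher RST mean in 32.4% and a median of −0.24. The RST mean was the higher in 7 (median 0.10) without the 3 arrays of low hybridization controls, where no gene met the unadjusted criterion, and in 6 (median 0.08) without RST mouse 4. Sirpa, the macrophage receptor of Cd47, had a log2 fold change of −0.17 (SE 0.33). Itga4, an integrin subunit that Icam4 binds, was lower in every RST mouse (9.70, 9.70, 9.27 and 9.06 in control and 8.25, 9.03, 8.89 and 8.75 in RST mice), with a difference of −0.70 (SE 0.28, adjusted p = 0.34 in limma), and was the only one of the list past the unadjusted criterion. Edn3, whose precursor the Kell endopeptidase cleaves, had a difference of 0.50 (SE 0.30).

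Erythroid regulators were more often higher than lower (7 and 3 of 10, median 0.42), beside 32.4% of all genes higher and a median of −0.24. Only 1 regulator gene passed the unadjusted criterion, beside 2.8% of genes with RST mice higher. That gene, E2f2, a cell cycle factor of terminal erythroid division, read 9.88, 9.83, 9.94 and 10.47 in control and 11.13, 11.25, 11.07 and 10.69 in RST mice, without overlap (1.01, SE 0.26, adjusted p = 0.32 in limma). Foxo3, which guards erythroid cells against oxidative stress, had a log2 fold change of 0.56 (SE 0.27). Gata1 had one of 0.66 (SE 0.35) and Klf1 one of 0.85 (SE 0.57), with adjusted p values of 0.40 and 0.50 in limma. RST mouse 4 lay within the control range for both. For Klf1, RST mouse 3 did too, at 4.81 against 5.02 in control mouse 1. Without RST mouse 4, 4 of 10 regulators met the unadjusted criterion with RST mice higher (Klf1, Gata1, Zfpm1 and E2f2, of which Zfpm1 was named after its values were seen), beside 5.19% of genes. Without the 3 arrays of low hybridization controls 0 did, beside 0.613% of genes.

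The genes whose levels followed the members most closely over the 8 mice were ranked by Pearson's r with the mean standardized level of each class, members left out. For the erythroid-restricted class these were Wap (0.985), Cpox (0.975), an enzyme of heme synthesis, Fbxo3 (0.965), Tlx1 (0.957) and 2310034O05Rik (0.952). For the widely expressed class they were Ssbp2 (0.989), Mylk3 (0.986), Capn3 (0.981), Klf1 (0.979) and Atp9a (0.978). With values centred within each group, r was 0.98 for Wap, 0.967 for Cpox and 0.99 for Klf1. These centred values come from the same 8 arrays on which the genes were picked, so they are no separate support. The coefficients of the ranking are the highest of 11762 genes over 8 mice that share their arrays and are given as a description.

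Some alternatives (the filter, the prior, the test, the replicate block) cannot change a fold change. Under the others, the differences of Kel (15), Cd59a (16), Rhd (15), Aqp1 (15) and Icam4 (12) kept their sign in all those tried, whose number is in parentheses, and those of Ermap, Rhag, Gypc and Cd47 did not. Icam4 had no value without RST mouse 1, RST mouse 2 or the 3 arrays of low hybridization controls. Its sign was thus counted only where its high RST arrays kept it past the filter. The differences ranged from 0.56 to 1.38 for Kel, 0.36 to 1.17 for Cd59a and 0.24 to 1.05 for Rhd. Leaving out RST mouse 4 raised the number of members past the unadjusted criterion from 3 to 5 (Icam4 and Aqp1 added), while 5.19% of genes met it with RST mice higher. Leaving out control mouse 1, 2 or 4 or RST mouse 1 or 2 lowered it to 2 (Kel and Cd59a). Without RST mouse 3 the 3 members were Kel, Icam4 and Cd59a. No share of genes is given for these settings. All probe sets past the criterion, in either direction, numbered 1731, 1751 and 3731 without control mouse 1, 2 and 4. Without RST mouse 1, 2 and 3 they numbered 2347, 4933 and 2944, against 3337 with all mice. The changes in the member count are therefore not read as results about the members. Without RST mouse 4, groups did not overlap for Kel, Cd59a and Aqp1 among the 9 members past the filter, and for Xk below it, beside 6.91% of genes with RST mice higher. The lowest values of Kel, Cd59a and Rhd came from subtracting the red cell markers or from leaving out the 3 arrays of low hybridization controls.

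**Figure D4:**
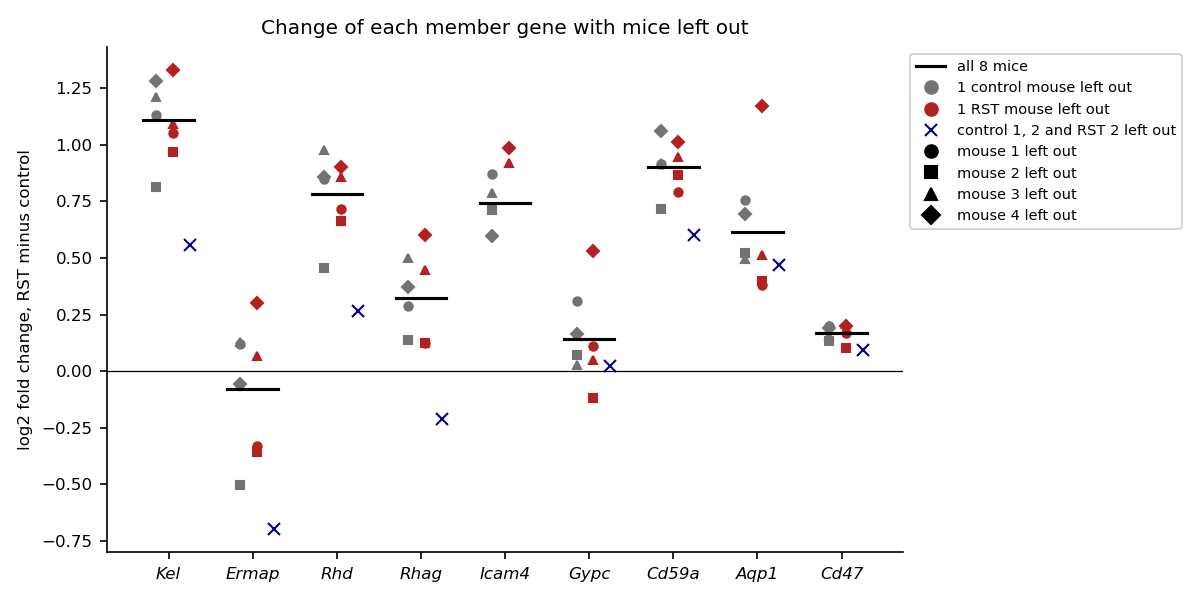
Log2 fold change, RST minus control (vertical axis), of the 9 members past the filter with all 8 mice (bars), with 1 mouse left out (grey for a control mouse, red for an RST mouse) and without the 3 arrays of low hybridization controls (crosses). Kel and Cd59a stay above 0.5 in all of these, Rhd drops to 0.46 without control mouse 2, and Ermap lies on both sides of 0; Icam4 has no value without RST mouse 1, RST mouse 2 or the 3 arrays.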

How the data were processed

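Whole blood RNA of 4 RST and 4 control mice (30 ng each) was measured on 1 Affymetrix mouse GeneChip each. The authors deposited background-corrected, normalized log2 values, 1 per probe set and array. Partek, RMA and Affymetrix Expression Console 1.2.0.20 stand in the submitters' processing notes without an order. Scanner files, presence calls and the study's other experiments were not analysed here, and scan dates are not given in the sources used here. Depth has no counterpart on arrays, where 4 mice per group limit the precision.

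From the deposited log2 values, 64 control probe sets were left out and 25084 probe sets passed the filter. The groups were tested by limma 3.58.1 (R 4.3.3, default prior), with p adjusted over all probe sets tested (Benjamini-Hochberg), and single values by exact permutation of 4 against 4 mice. The brightest probe set past the filter stood for a gene, and those below it came from a fit without the filter. Gene names came from the platform annotation (1 gene for 34958 probe sets, several for 932, not listed for 9211), 34754 of them brought up to date by Entrez identifier from the RefSeq genes of GRCm38.p6. Group levels average, over genes, each log2 value centred on its gene's mean. The members and lists were chosen with earlier results of these data known. Named are all members, the 2 genes with the smallest p of each list, Slc4a1, Epb41, Ank1, Epb42, Sirpa, Gata1 and Klf1, and the 5 genes most like each class. Alternatives changed the filter, scaling, prior, test, array weights, covariates, probe set rule, class membership and mice. The fit was tested on simulated data. Summaries and figures used Python 3.11.15, pandas 2.3.3, numpy 2.4.6 and matplotlib 3.10.9. The labels number the animals within each group, and p-values measure the spread between these mice, not between cages, which were the units assigned.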

Additional observations from a re-analysis of the deposited data

Results flagged for a closer look

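Of 32 groups of 4 values examined (16 member probe sets in each group of mice), 5 held a mouse whose gap to its nearest neighbour exceeded Dixon's critical share of the group's range, where chance gives about 1 in 20. For Aqp1 in RST mice, mouse 4 lay at 5.18 (5.177), beside 7.15 to 7.55 in the other RST mice. For Xk on 1453866_a_at, control mouse 2 lay at 2.04 and RST mouse 4 at 2.19 (2.186), below the other mice of their groups. On the other Xk probe set, 1450189_at, RST mouse 1 lay above the rest at 3.06 (3.055), and both Xk probe sets were below the filter on low values. For Cd47 on 1430997_at, control mouse 1 lay at 6.31, beside 4.82 to 5.06 in the other control mice. RST mouse 4 was involved in 2 of the 5, and the array of that mouse had the lowest upper quartile (4.50, against 5.06 to 5.37 in the other 7) and the lowest array weight (0.40).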

How the results depend on the processing

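Of 134 member values under alternatives that can change a fold change, 119 kept their direction and 15 turned, and 0 values under any alternative passed the adjusted threshold in limma (smallest adjusted p 0.102). The trended and robust prior called 35 probe sets in all. The unadjusted count of 3337 was 5539 with array weights, 2091 with the hybridization controls as a covariate and 1731 to 4933 with 1 mouse left out. Members past the unadjusted criterion numbered 5 with median scaling, where 3270 probe sets passed it in either direction. They numbered 0 with 3 arrays of low hybridization controls left out, beside 0.613% of genes with RST mice higher, and 2 to 5 with 1 mouse left out. The class difference of 0.35 turned to −0.033 (covariate), −0.251 (3 arrays of low hybridization controls left out) and −0.0827 (Gypc as erythroid-restricted). It was 0.509 with Aqp1 and Xk as erythroid-restricted. Ermap turned to 0.131 (quantile), 0.186 (median scaling) and 0.141 (array weights), and ranged from −0.504 to 0.303 with 1 mouse left out. Gypc turned to −0.06 (control probe set scaling) and −0.401 (relative to red cell markers), and ranged from −0.118 to 0.529 with 1 mouse left out. Cd47 turned to −0.0343 (control probe set scaling), −0.0559 (mean of probe sets) and −0.375 (relative to red cell markers), and Rhag to −0.21 (3 arrays left out) and −0.22 (relative to red cell markers). The cause was not tested. The labels number the mice and do not say whether the numbers pair them. Correlations of same-numbered mice were −0.24, 0.42, 0.05 and 0.20, which cannot settle it. With a replicate block the counts were 0 adjusted, 4234 unadjusted and 3 members (Kel, Icam4 and Cd59a), with a class difference of 0.349. Leaving out 3 arrays and subtracting the red cell markers were chosen after the data were seen. Levels of Xk and Icam4 near background limit what their probe sets can show.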
